A study of Mus musculus with 9 samples.

Results

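Testes of double-knockout mice, which lack both Gm1142 and Gm4779, were set against wild-type (WT) testes across every gene with enough reads to test. The comparison takes 6 of the 9 libraries of the series, 3 double-knockout and 3 WT, all from whole testis collected on postnatal day 7. The remaining 3 libraries are labelled as a knockout of Gm1142 alone. Their values are quoted beside a few genes under that label only, since their Gm1142 counts are not lower than in WT (below). WT animals were described as normal, and the labels give no strain, litter, allele design or clone for either group, nor whether the replicates came from separate animals. What the p-values weigh is thus the scatter among these libraries, part or all of which could be technical. Messenger RNA was captured with oligo(dT) beads, and the deposited values are read counts per gene.

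At this age the cords of the testis contain spermatogonia and still immature Sertoli cells, wrapped in peritubular myoid cells, with Leydig cells, stroma and vessels between the cords. Undifferentiated spermatogonia include the stem cells of the lineage. Retinoic acid turns them into differentiating spermatogonia, which gain the receptor Kit and the meiosis gatekeeper Stra8 and then enter meiosis, where homologous chromosomes pair along the synaptonemal complex. Many germ-cell genes are kept silent elsewhere in the body, in part by a Polycomb complex (PRC1.6) whose MGA, MAX and E2F6 subunits read E-box and E2F sequences in promoters. Duct genes mark a different compartment, the epithelium of the Wolffian duct, of the rete of the testis and of the efferent ducts. Hox genes pattern mesoderm more widely, and which cells gave their reads cannot be told in whole testis.

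At the targeted genes the double-knockout label matched the counts, while the Gm1142 knockout label was not borne out by them. Gm1142 is listed under the symbol 8030474K03Rik, and its level was 10.7, 9.86 and 8.83 CPM (reads scaled to a common library size) in WT 1, 2 and 3. All 3 double-knockout libraries held 0 counts of it. Gm4779 stood at 8.04, 9.46 and 11.4 CPM in WT and likewise at 0 counts in each double-knockout library. Against a floor of 3 counts over the double-knockout libraries together, 0.162 CPM, the level of Gm1142 was at least 60.5-fold lower and that of Gm4779 at least 59.5-fold lower, which covers counting error only. The edgeR quasi-likelihood test gave adjusted p = 9.82e-07 for Gm1142 and 9.82e-07 for Gm4779. In the 3 libraries labelled Gm1142 knockout, Gm1142 stood at 12.6, 11.8 and 10.7 CPM, each within or above the WT range, and Gm4779 at 17.1, 15.6 and 12.6 CPM, above every WT library. A count summed over a gene cannot show a small deletion or a frameshift, so no direction below is drawn from that label.

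The targets are X-linked neighbours that start head to head. By the GRCm38 annotation, Gm4779 spans chrX:101790053-101794423 on the minus strand and Gm1142 spans chrX:101794656-101798642 on the plus strand, with 232 bases between them. The RefSeq promoter windows, 250 bases before to 50 bases after each start, share 290 of their bases, so that 1 stretch of DNA serves as the upstream sequence of both. It is shown because both deleted genes start within it. It holds neither of the motifs searched below, so no letter is in capitals (chrX:101794396-101794695, minus strand, GRCm38.p6):
Gm4779: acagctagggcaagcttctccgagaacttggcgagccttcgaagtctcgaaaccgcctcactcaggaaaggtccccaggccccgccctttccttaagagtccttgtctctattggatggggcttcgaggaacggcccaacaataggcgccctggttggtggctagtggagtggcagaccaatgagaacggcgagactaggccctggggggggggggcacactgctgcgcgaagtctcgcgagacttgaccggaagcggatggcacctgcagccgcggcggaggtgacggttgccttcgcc
Of the nearest genes in the annotation, Itgb1bp2, Taf1, Ogt, Nhsl2, Pin4 and Ercc6l had enough reads to test and none was called. Taf1, which encodes the largest subunit of the general transcription factor TFIID, stood at 65.8, 73.7 and 69.6 CPM in WT and 86.9, 113 and 74.5 CPM in the double knockout (log2 fold change 0.40, adjusted p = 0.45).

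Few genes passed the test. Of 17251 genes tested, 16 were called at an adjusted p under 0.05 (0.0927%), 8 of them higher in the double knockout (0.0464%) and 8 lower (0.0464%). Besides the targets, they were 4 germ-cell genes (Dazl, Uchl1, Sycp1 and Fkbp6), the orphan nuclear receptor gene Nr4a1, the homeobox gene Hoxd3, the predicted gene Gm47283 of the Y chromosome, the little-read gene Odf3b, and 3 mitochondrial genes with 3 nuclear copies of them. At an unadjusted p under 0.05 there were 1544 genes, 831 higher and 713 lower. Library totals ran from 4514237 to 5091624 counts in WT and from 4370124 to 8359594 in the double knockout, whose replicate 2 was the deepest. Spearman correlations of gene levels were 0.969 to 0.974 within WT, 0.964 to 0.969 within the double knockout and 0.957 to 0.969 between the groups. With DESeq2 in place of edgeR 68 genes were called, among them all 16. The edgeR count was 9 without WT 1, 32 without double-knockout 1 and 45 without replicate 2 labelled Gm1142 knockout, a library that shares the estimate of spread.

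**Figure D1:**
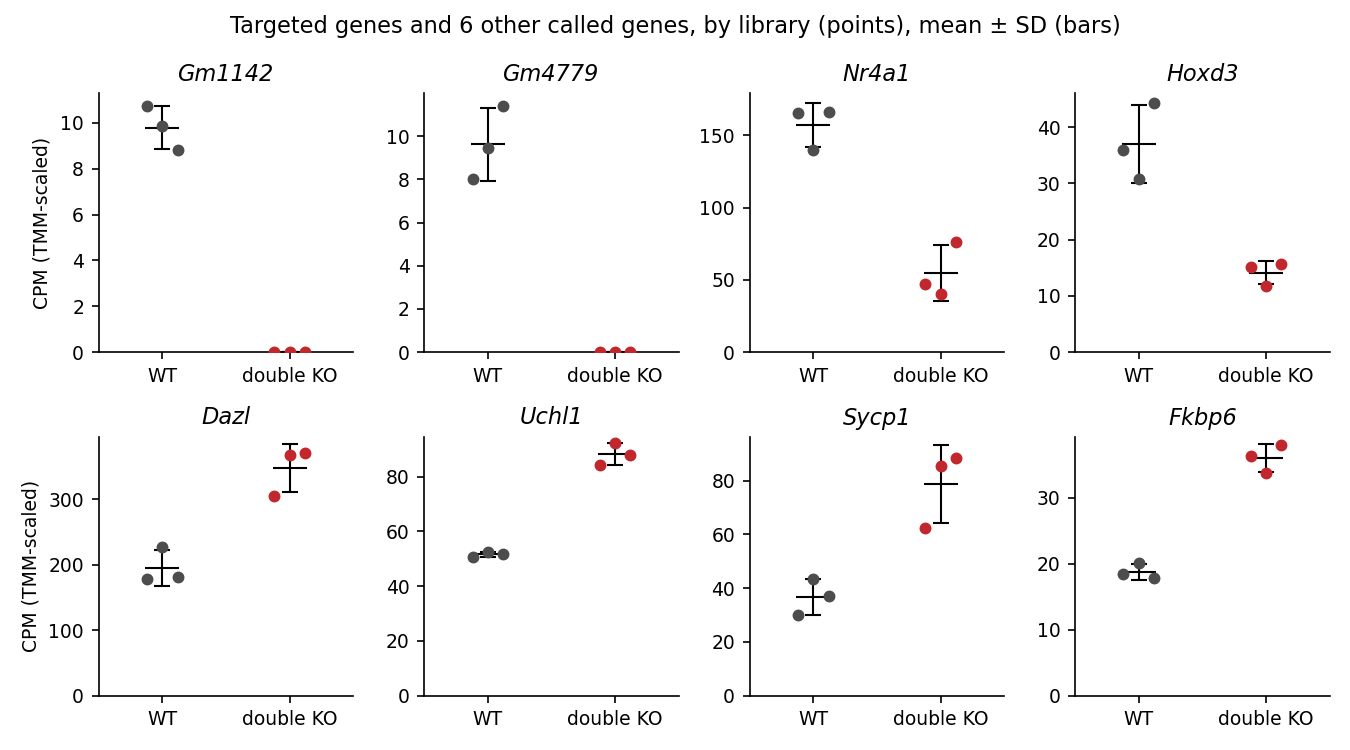
Levels of the 2 targeted genes and of 6 other called genes, in CPM on TMM-scaled library sizes, with 1 point per library and bars for the mean and SD of 3 libraries. In each panel the 3 double-knockout points lie wholly above or wholly below the 3 WT points. Both targets are at 0 in the double knockout, Nr4a1 and Hoxd3 are lower there, and Dazl, Uchl1, Sycp1 and Fkbp6 are higher.

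Germ-cell genes stood higher in the double knockout, by 1.71-fold to 2.14-fold for the 4 that were called. The general germ-cell list holds genes active from spermatogonia onward, and 21 of its 22 entries were tested. Of these, 2 rose (Dazl and Uchl1), none fell, and 13 had all 3 double-knockout libraries above all 3 WT libraries, against 8.28% of all genes tested. The median log2 fold change over the list was 0.60, where the median of all genes was 0.017. In whole testis, more germ cells and more RNA of these genes per germ cell cannot be told apart, nor can fewer cells of a type and less RNA per cell where a list is lower.

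Dazl, an RNA-binding protein that germ cells need to develop and enter meiosis, was at 179, 226 and 181 CPM in WT 1, 2 and 3. In the double knockout it was at 305, 368 and 370.3 CPM. The lowest double-knockout library lay above the highest WT library, and Dazl rose 1.78-fold (log2 fold change 0.83, SE 0.14, adjusted p = 0.0069). Without WT 1, WT 3 or double-knockout 2 the adjusted p was 0.167, 0.114 and 0.0608. In the libraries labelled Gm1142 knockout Dazl stood at 138, 103 and 131 CPM.

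Uchl1 encodes a deubiquitinase used as a marker of spermatogonia. Its values were 50.7, 52.6 and 51.7 CPM in WT and 84.4, 92.4 and 87.9 CPM in the double knockout, with little spread inside either group and no overlap. Uchl1 rose 1.71-fold (log2 fold change 0.77, SE 0.14, adjusted p = 0.0177). The call was lost without any 1 WT library (adjusted p = 0.23, 0.113 and 0.127 without WT 1, 2 and 3), without double-knockout 2 (0.126) and without double-knockout 3 (0.067).

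Other members of the general list did not pass over all genes. Ctcfl, the germ-cell paralogue of the insulator protein CTCF, was at 1.53, 1.38 and 1.29 CPM in WT and 7.08, 5.64 and 6.57 CPM in the double knockout, a gap with no overlap at low read numbers (log2 fold change 2.17, adjusted p = 0.0788, and 0.0161 by DESeq2). Dnd1, which protects germ-cell messages and is needed for germ-cell survival, stood at 11.3, 12.2 and 14.6 against 23.9, 19.5 and 23.1 CPM (log2 fold change 0.80, adjusted p = 0.217). The helicase gene Ddx4, the usual marker of all germ cells, was at 58.8, 65.2 and 69.8 CPM in WT and 66.4, 113 and 90.8 CPM in the double knockout. Its groups overlapped, since double-knockout 1 lay below WT 3 (log2 fold change 0.48, adjusted p = 0.405).

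Stage by stage, the difference was seen in genes of differentiating spermatogonia and of early meiosis, while the median of the undifferentiated list was near 0 and took either sign when 1 library was left out. None of the 14 tested genes of differentiating spermatogonia (of 16 entries) was called. In 5 of the 14 (35.7%) the double-knockout libraries were all above WT and in none all below, against 8.28% and 7.57% of all genes. The list's median log2 fold change was 0.62. Kit, the receptor that marks differentiation, was at 33.7, 29.0 and 34.0 CPM in WT and 48.6, 63.5 and 53.7 CPM in the double knockout. Its groups were well apart (log2 fold change 0.78, SE 0.20, adjusted p = 0.182). Dmrtb1, a transcription factor that times the switch from mitosis to meiosis, stood at 2.87, 3.35 and 1.29 against 6.31, 8.57 and 10.9 CPM (log2 fold change 1.75, adjusted p = 0.209). Stra8, which retinoic acid induces, was at 9.57, 27.6 and 12.3 CPM in WT and 36.5, 33.1 and 27.0 CPM in the double knockout. WT 2 stood far above the other WT libraries and just above double-knockout 3, so the Stra8 groups overlapped (log2 fold change 0.97, adjusted p = 0.264). Without WT 2 its adjusted p was 0.00848.

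In the undifferentiated list, 22 of 28 entries were tested and none was called. The double-knockout libraries were all above WT in 2 and all below in 4 (against 8.28% and 7.57% of all genes), and the median log2 fold change was -0.06, or -0.20 without WT 1 and 0.11 without WT 2. Lin28a, an RNA-binding protein of undifferentiated and early differentiating spermatogonia, was at 14.7, 21.3 and 19.4 CPM in WT and 31.4, 39.6 and 32.4 CPM in the double knockout, without overlap (log2 fold change 0.91, adjusted p = 0.241). The stem-cell receptor gene Gfra1 lay the other way, at 9.95, 13.6 and 11.4 against 6.70, 8.69 and 8.61 CPM (log2 fold change -0.54, adjusted p = 0.577). Besides Gfra1, the genes wholly below WT were Lhx1, Cdh1 and Tcl1. The list's markers Zbtb16, Etv5 and Id4 had overlapping groups (log2 fold change 0.14, -0.36 and -0.37). Reads of a listed gene from other cells of the whole testis cannot be told apart, and their part in the median was not tested. Genes that make, bind or degrade retinoic acid showed no call among 15 tested of 21 entries, with a median of 0.09. In 1 (6.67%) the double knockout lay wholly above WT and in 1 (6.67%) wholly below, near the shares of all genes. Cell-cycle genes, 33 of 33 tested, had no call, 2 genes (6.06%) wholly above, none wholly below, and a median of 0.09.

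Meiosis genes, the longest germ-cell list, also stood higher in the double knockout. Of 41 tested genes (of 44 entries), Sycp1 rose and none fell, and the median log2 fold change was 0.56. Every double-knockout library was above WT in 19 (46.3%) and below in 1 (2.44%), against 8.28% and 7.57% of all genes. DESeq2 also called Sycp2, Smc1b, Ankrd31 and Stag3. The promoters of Sycp1 and Stag3, and of Fkbp6 and Dazl from the other lists, are printed as examples of germ-cell promoters with and without the sequences that PRC1.6 subunits read. Capitals mark CACGTG (an E-box, the same on both strands) and GCGGGA or its reverse complement TCCCGC (the core of an E2F site). The motifs do not overlap one another, and all windows are RefSeq promoters of GRCm38.p6, written 5′ to 3′ along the gene.
Sycp1 (chr3:102936051-102936350, minus strand): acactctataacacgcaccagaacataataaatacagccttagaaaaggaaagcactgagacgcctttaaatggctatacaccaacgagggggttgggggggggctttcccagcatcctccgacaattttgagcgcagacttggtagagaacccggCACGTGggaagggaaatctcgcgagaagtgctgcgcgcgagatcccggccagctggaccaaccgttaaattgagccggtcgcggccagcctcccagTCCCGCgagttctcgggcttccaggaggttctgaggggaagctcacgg
Stag3 (chr5:138280259-138280558, plus strand): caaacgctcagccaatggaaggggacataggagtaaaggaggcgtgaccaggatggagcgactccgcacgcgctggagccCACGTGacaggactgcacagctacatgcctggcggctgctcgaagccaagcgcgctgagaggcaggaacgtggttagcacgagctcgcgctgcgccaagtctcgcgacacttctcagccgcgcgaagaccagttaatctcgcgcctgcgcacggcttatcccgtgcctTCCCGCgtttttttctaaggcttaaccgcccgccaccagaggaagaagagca
Fkbp6 (chr5:135349995-135350294, minus strand): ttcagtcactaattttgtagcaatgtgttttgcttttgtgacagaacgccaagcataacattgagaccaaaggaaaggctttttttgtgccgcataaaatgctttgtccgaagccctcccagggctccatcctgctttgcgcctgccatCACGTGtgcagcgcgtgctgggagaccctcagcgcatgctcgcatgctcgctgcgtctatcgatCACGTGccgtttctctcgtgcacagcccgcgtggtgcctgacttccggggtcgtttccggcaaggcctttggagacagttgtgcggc
Dazl (chr17:50293571-50293870, minus strand): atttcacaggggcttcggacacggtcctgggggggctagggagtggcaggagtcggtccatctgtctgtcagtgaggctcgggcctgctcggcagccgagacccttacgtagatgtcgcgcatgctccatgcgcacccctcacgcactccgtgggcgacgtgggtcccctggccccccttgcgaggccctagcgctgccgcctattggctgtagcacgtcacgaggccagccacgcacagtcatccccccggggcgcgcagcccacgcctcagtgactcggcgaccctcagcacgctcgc
Sycp1 and Stag3 each hold 1 E-box and 1 E2F core, Fkbp6 holds 2 E-boxes, and Dazl holds neither. The promoters of Uchl1, which was called, and of Sycp2, whose adjusted p was 0.056, also hold neither. RefSeq promoters were matched for 11580 of the tested genes, and 11.4% of those hold CACGTG. The share was 9 of 32 (28.1%) for meiosis genes, 8 of 20 (40.0%) for piRNA genes, 4 of 13 (30.8%) for general germ-cell genes, 3 of 16 (18.8%) for X-linked germ-cell genes, 2 of 12 (16.7%) for differentiating genes and 1 of 16 (6.25%) for undifferentiated genes. Lists outside the germ line reached similar shares, with 6 of 21 (28.6%) for cholesterol genes and 7 of 25 (28.0%) for immediate early genes. GCGGGA stood in 38.5% of all those promoters and in 20 of 32 (62.5%) of the meiosis genes. Its share was 5 of 13 (38.5%) for general germ-cell genes, 6 of 20 (30.0%) for piRNA genes and 2 of 16 (12.5%) for X-linked germ-cell genes, and 16 of 25 (64.0%) for immediate early genes. Across the 5 germ-cell lists described here other than the undifferentiated, the 26 genes with an E-box had a median log2 fold change of 0.56 and the 67 without one 0.60. Letters in a window are no evidence of binding.

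Sycp1 builds the transverse filaments of the synaptonemal complex. It was at 29.9, 43.4 and 37.0 CPM in WT and 62.2, 85.5 and 88.3 CPM in the double knockout. The lowest double-knockout library, replicate 1, lay well above the highest WT library, and Sycp1 rose 2.14-fold (log2 fold change 1.10, SE 0.17, adjusted p = 0.0028). The adjusted p was 0.0717 without WT 1. In the libraries labelled Gm1142 knockout Sycp1 stood at 54.6, 59.3 and 55.8 CPM.

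The axial-element gene Sycp2 was at 30.8, 33.3 and 31.7 CPM in WT and 45.0, 60.5 and 68.2 CPM in the double knockout (log2 fold change 0.86, SE 0.17, adjusted p = 0.056, and 0.00657 by DESeq2). Smc1b, a meiotic cohesin subunit, stood at 30.4, 31.3 and 23.0 against 45.2, 54.9 and 53.2 CPM (log2 fold change 0.85, adjusted p = 0.0804). Stag3, another meiotic cohesin subunit, was close to 73.7 CPM in all 3 WT libraries and at 98.9, 99.9 and 131 CPM in the double knockout (log2 fold change 0.57, adjusted p = 0.12). None of these groups overlapped. Ankrd31, needed to place meiotic breaks on the sex chromosomes, was at 10.7, 12.4 and 18.7 and 27.2, 27.3 and 30.8 CPM (log2 fold change 1.03, adjusted p = 0.0987). The list was not uniform, with 37 positive and 4 negative log2 fold changes among the 41. Its marker Dmc1 averaged 28.0 CPM in WT and 30.7 CPM in the double knockout (log2 fold change 0.12, adjusted p = 0.897). The marker Hormad1 also overlapped between groups (0.42, adjusted p = 0.653). Rec114 was the gene wholly below WT (-0.28, adjusted p = 0.83).

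The piRNA pathway silences transposons in germ cells with small RNAs loaded on PIWI proteins. Of 27 tested genes (of 28 entries), Fkbp6 rose and none fell, and the median log2 fold change was 0.44. Of these, 18 (66.7%) were wholly above WT and 1 (3.70%) wholly below, against 8.28% and 7.57% of all genes. Fkbp6, a co-chaperone in piRNA loading, stood at 18.4, 20.1 and 17.9 CPM in WT and 36.4, 33.8 and 38.1 CPM in the double knockout. The groups were far apart beside their own spread, and Fkbp6 rose 1.92-fold (log2 fold change 0.94, SE 0.18, adjusted p = 0.0368). Close to the threshold, the call was lost without any 1 of the 6 libraries (adjusted p = 0.084 to 0.306) and without replicate 3 labelled Gm1142 knockout (0.0733). Mael, a nuage protein, was at 30.2, 29.2 and 32.7 against 46.7, 52.1 and 45.3 CPM, with no overlap (log2 fold change 0.65, adjusted p = 0.206). Piwil2, a PIWI protein of spermatogonia, was at 47.9, 42.4 and 48.9 against 61.8, 69.9 and 72.5 CPM (log2 fold change 0.55, adjusted p = 0.361). The gene wholly below WT was Mybl1, a transcription factor of pachytene spermatocytes, at 54.0, 44.5 and 46.7 against 32.0, 39.8 and 30.1 CPM (log2 fold change -0.50, adjusted p = 0.369).

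X-linked germ-cell genes had the highest list median, 0.78, although none was called. All 18 tested (of 30 entries) had a positive log2 fold change. In 12 (66.7%) the double knockout lay wholly above WT, against 8.28% of all genes. Taf7l, a germ-cell variant of a TFIID subunit, was at 69.3, 71.2 and 55.8 CPM in WT and 91.3, 111 and 115 CPM in the double knockout (log2 fold change 0.69, SE 0.15, adjusted p = 0.0932, and 0.0174 by DESeq2). The RNA export gene Nxf2 stood at 39.6, 35.1 and 35.3 against 71.9, 66.8 and 50.3 CPM (log2 fold change 0.78, adjusted p = 0.119, and 0.0359 by DESeq2). Both genes were without overlap between groups. Tex13b, a spermatogonial gene, stood at 94.0, 141 and 138 against 149, 181 and 247 CPM (log2 fold change 0.63, adjusted p = 0.257). The X chromosome as a whole did not share that median. Its 603 tested genes had a median of 0.04, with 12.8% wholly above WT, and without the listed germ-cell genes the share was 11.1% of 585.

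**Figure D2:**
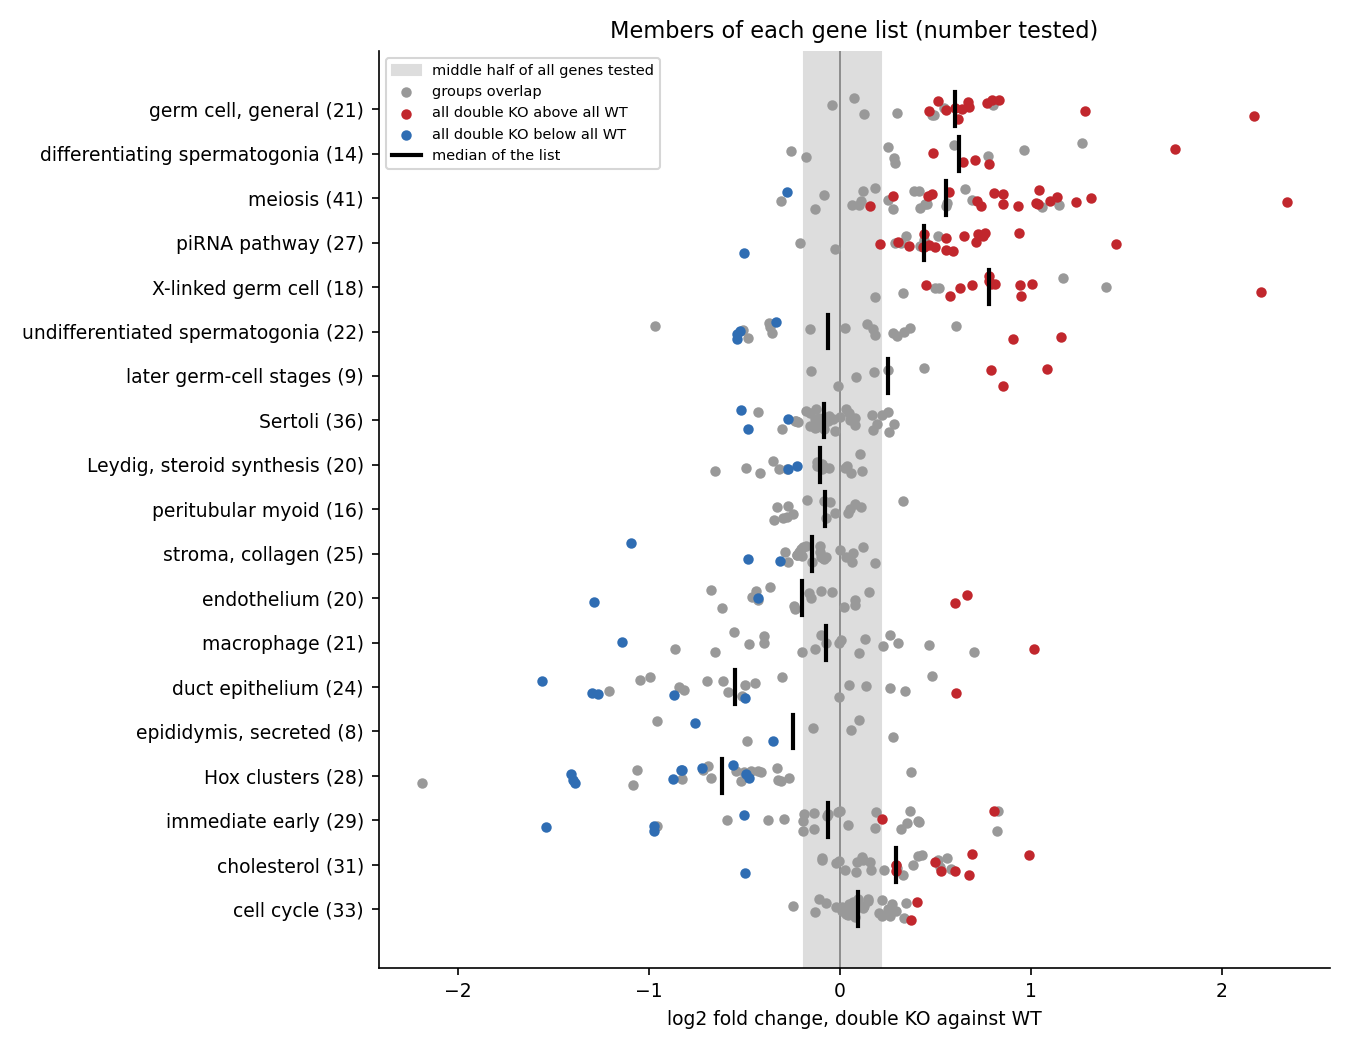
Log2 fold change of the double knockout against WT for each tested member of 19 gene lists, with the number tested in brackets. Red points are genes with all double-knockout libraries above all WT libraries, blue points the reverse, gray points genes whose groups overlap, black bars list medians, and the gray band spans the range from the 25th to the 75th percentile of all genes tested. The general, differentiating, meiosis, piRNA and X-linked germ-cell lists have medians from 0.44 to 0.78, and the duct and Hox lists medians of -0.55 and -0.62.

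Together the general, differentiating, meiosis, piRNA and X-linked lists hold 121 tested genes, of which 4 rose and none fell. In 67 (55.4%) the double knockout lay wholly above WT and in 2 (1.65%) wholly below, against 8.28% and 7.57% of all genes. This pool leaves out the undifferentiated list (2 of 22 wholly above, 4 wholly below, median -0.06). It also leaves out the later-stage list (3 of 9 wholly above, none below, median 0.25). The lists were chosen with earlier results of these data known, so these shares describe this pool only. Per library, the median distance of these genes from their WT mean was -0.10, 0.15 and -0.03 on the log2 scale in WT 1, 2 and 3. In the double knockout it was 0.41, 0.63 and 0.61. All 3 double-knockout libraries were above every WT library, with replicate 1 the lowest of the 3. The libraries labelled Gm1142 knockout stood at 0.15, 0.22 and 0.30 against the same WT mean. With all libraries thinned to the depth of the shallowest the general list had a median of 0.59. Duct and Hox genes lay lower in the same double-knockout libraries, with values given below, and their part in this result was not tested. Germ-cell genes share the same cells and are not independent of one another.

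Later germ-cell stages were barely present. The spermatid genes Prm1 and Tnp1 had 8 and 12 reads over the 3 WT libraries and 5 and 8 over the 3 double-knockout libraries, and Pgk2, the spermatocyte and spermatid glycolytic gene, had 0 in all. Of 26 entries on this list 9 could be tested and none was called. In 3 (33.3%) the double knockout was wholly above WT, against 8.28% of all genes. The median was 0.25, but 0.11 without WT 2 and 0.56 without WT 1. Among the 15 genes of the PRC1.6 complex and its partners, all tested, none was called. Wdr5 was at 65.3, 63.7 and 66.8 CPM in WT and 88.0, 93.1 and 83.3 CPM in the double knockout (log2 fold change 0.44, adjusted p = 0.277), and the list's median was 0.06.

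**Figure D3:**
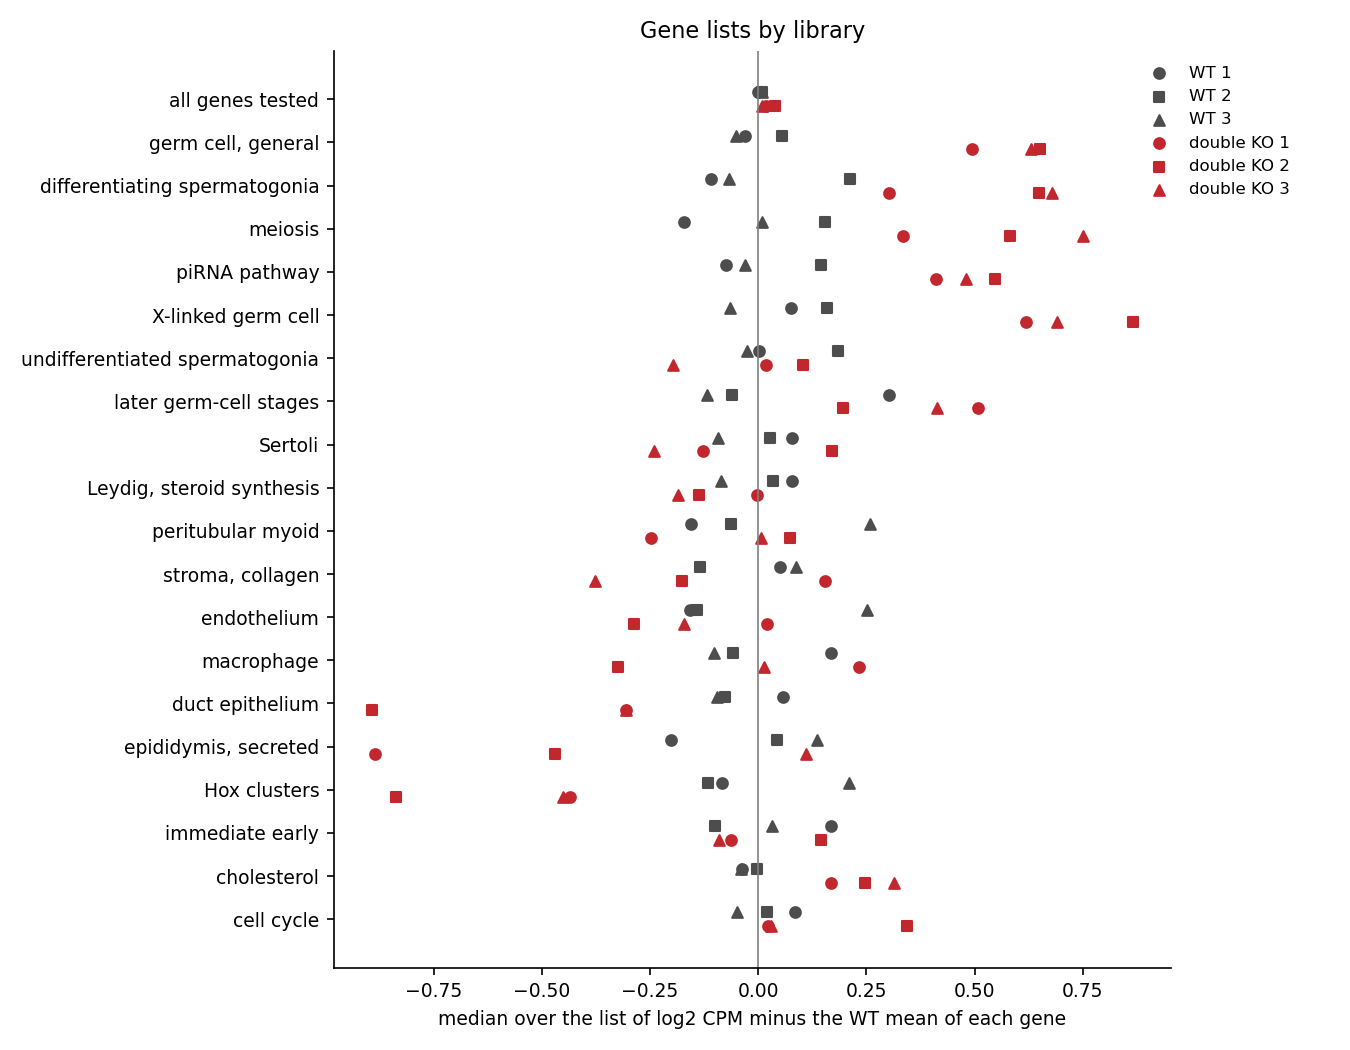
Median over each gene list of the log2 CPM of a library minus the gene's WT mean, for the 3 WT (gray) and 3 double-knockout (red) libraries, with the symbol giving the replicate number. In the 5 germ-cell lists at the top every double-knockout library lies right of every WT library, in the duct and Hox lists every one lies left with replicate 2 farthest, and in the Sertoli list the groups mix.

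Nr4a1 was the called gene with the most reads among those that fell, apart from the targets and nuclear copies. It encodes an orphan nuclear receptor that hormones and growth factors induce within minutes to hours and that drives steroid synthesis genes in Leydig cells. Its level was 165, 139.6 and 166 CPM in WT 1, 2 and 3 and 47.5, 39.9 and 76.3 CPM in the double knockout. Even the highest double-knockout library, replicate 3, was far under the lowest WT library, and Nr4a1 fell by 1.54 on the log2 scale (SE 0.18, adjusted p = 1.05e-04). The call held whichever library was left out. In the libraries labelled Gm1142 knockout Nr4a1 stood at 27.0, 23.0 and 25.1 CPM, also under every WT library.

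The other immediate early genes did not share this difference as a list. Of 29 tested (of 33 entries), Nr4a1 alone was called. The double knockout was wholly below WT in 4 (13.8%), Nr4a1 included, and wholly above in 2 (6.90%), against 7.57% and 8.28% of all genes, with a median log2 fold change of -0.06. The endothelial and immune transcription factor gene Klf2 was at 9.38, 6.50 and 8.61 against 3.25, 5.53 and 3.40 CPM (log2 fold change -0.97, adjusted p = 0.461). Fos and Junb were each under 5 CPM in all 6 libraries.

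Hox genes stood lower in the double knockout. Of 39 Hox genes, 28 were tested, and 27 of these had a negative log2 fold change. Hoxd3 fell, none rose, 10 were wholly below WT (7.57% of all genes were) and none wholly above, with a median of -0.62. Hoxd3, a homeobox gene of axial and mesodermal patterning, was at 36.0, 30.7 and 44.4 CPM in WT and 15.1, 11.7 and 15.6 CPM in the double knockout. Every double-knockout library lay far under every WT library, and Hoxd3 fell by 1.40 on the log2 scale (SE 0.21, adjusted p = 0.0028). The call held whichever library was left out, with adjusted p up to 0.0468. The libraries labelled Gm1142 knockout were at 21.6, 25.6 and 17.9 CPM.

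All 4 Hox clusters showed the same sign. The median log2 fold change was -0.80 over 8 HoxA genes, -0.78 over 8 HoxB genes, -0.55 over 6 HoxC genes and -0.44 over 6 HoxD genes. Hoxa9 stood at 21.6, 18.3 and 30.4 CPM in WT and 12.6, 11.1 and 14.9 CPM in the double knockout (log2 fold change -0.87, adjusted p = 0.241). Hoxb5 was at 6.32, 8.67 and 7.75 against 4.21, 2.26 and 2.26 CPM (log2 fold change -1.39, adjusted p = 0.309). For Hoxb6 the values were 27.4, 28.4 and 36.6 against 23.3, 10.3 and 23.6 CPM (log2 fold change -0.72, adjusted p = 0.409). In the last, double-knockout 2 lay far under replicates 1 and 3. Genes within a cluster are neighbours and are read from shared regulatory domains, so they are not independent of one another.

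Duct epithelium genes, which mark the Wolffian duct, the rete and the efferent ducts, lay low beside the Hox genes. Of 24 tested (of 29 entries) none was called, and the median was -0.55. Of these, 5 (20.8%) were wholly below WT and 1 (4.17%) wholly above, against 7.57% and 8.28% of all genes. Cdh16, a cadherin of kidney and duct epithelium, was at 24.1, 18.9 and 28.2 CPM in WT and 14.4, 7.22 and 8.38 CPM in the double knockout. The groups did not overlap (log2 fold change -1.26, SE 0.27, adjusted p = 0.0816, and 0.00758 by DESeq2). Emx2, a homeobox gene required for the urogenital tract, stood at 5.55, 8.08 and 10.6 against 3.44, 2.82 and 3.62 CPM (log2 fold change -1.30, adjusted p = 0.265). Bmp7, a growth factor, was the gene wholly above WT, at 11.5, 8.28 and 7.97 against 13.8, 13.2 and 15.6 CPM (log2 fold change 0.61, adjusted p = 0.488). The duct transcription factor gene Pax2 was at 7.27, 6.90 and 5.81 CPM in WT and 5.93, 5.41 and 11.1 CPM in the double knockout, with overlapping groups.

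By library, the duct median was 0.06, -0.08 and -0.10 from the WT mean in WT and -0.31, -0.89 and -0.30 in the double knockout. For Hox genes it was -0.08, -0.12 and 0.21 in WT and -0.44, -0.84 and -0.45 in the double knockout. In both lists replicate 2 was the lowest and the other 2 double-knockout libraries still lay under every WT library. Without it the duct median was -0.40. Secreted epididymal genes were tested for 8 of 28 entries, with none called and a median of -0.24. Of the 8 tested, 2 (25%) were wholly below WT and none wholly above, against 7.57% and 8.28% of all genes. Their median by library was -0.20, 0.04 and 0.14 in WT and -0.89, -0.47 and 0.11 in the double knockout, so the groups overlapped. Crisp1, a secreted protein of the epididymis, was at 25.8, 37.5 and 35.5 against 16.1, 18.7 and 23.8 CPM (log2 fold change -0.76, adjusted p = 0.302), and the epididymal gene Lcn5 had 0 reads in all 6 libraries. How much duct tissue was dissected with each testis was not tested.

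Somatic genes of the testis gave no call. The Sertoli, Leydig, myoid, stromal, endothelial, macrophage and red-cell lists together hold 145 tested genes. In 3 (2.07%) the double knockout was wholly above WT and in 11 (7.59%) wholly below, against 8.28% and 7.57% of all genes, and the median was -0.10. Wt1, which Sertoli cells need to keep their identity, was at 245 ± 8.28 CPM in WT and 239 ± 16.1 CPM in the double knockout (SD, n = 3).

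Among 36 tested Sertoli genes (of 38 entries), 3 (8.33%) were wholly below WT and none wholly above, against 7.57% and 8.28% of all genes. Their median was -0.08. Inha, the inhibin alpha subunit that Sertoli cells secrete to restrain follicle-stimulating hormone, stood at 451, 476 and 455 CPM in WT and 392, 393 and 360.1 CPM in the double knockout (log2 fold change -0.27, adjusted p = 0.465). The Inha groups did not overlap. Leydig and steroid synthesis genes, 20 tested of 22 entries, had 2 (10%) wholly below, none above and a median of -0.11. The steroid enzyme gene Cyp17a1 varied within groups more than between them, at 165, 157 and 46.3 CPM in WT and 124, 23.4 and 119 CPM in the double knockout. Hsd17b3, which makes testosterone from androstenedione, was at 778, 814 and 818 against 769, 572 and 656 CPM (log2 fold change -0.27, adjusted p = 0.545). Which cells of the testis gave the Hsd17b3 reads was not tested.

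The 16 myoid genes had none wholly to either side and a median of -0.08. The 25 stromal genes had 3 (12%) wholly below, none above and a median of -0.14. Of all genes, 7.57% lay wholly below and 8.28% wholly above. Tcf21, a transcription factor of interstitial mesenchyme, was at 66.0, 63.9 and 94.1 CPM in WT and 58.7, 49.3 and 52.8 CPM in the double knockout (log2 fold change -0.48, adjusted p = 0.382). Endothelial genes (20) had 2 to each side and a median of -0.20. Vwf, the von Willebrand factor of vessel walls, was at 8.23, 6.11 and 11.2 against 2.87, 3.84 and 3.62 CPM (log2 fold change -1.29, adjusted p = 0.265). Macrophage genes (21 of 24 entries) had 1 to each side and a median of -0.07, and the 7 red-cell genes tested of 14 had none and a median of 0.07.

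Genes of cholesterol synthesis and uptake lay slightly higher, with no call. Of 31 genes, all tested, 8 (25.8%) were wholly above WT and 1 (3.23%) wholly below, against 8.28% and 7.57% of all genes, and the median log2 fold change was 0.30. Insig1, the sterol sensor that holds back SREBP, was at 43.3, 44.3 and 36.2 CPM in WT and 69.8, 58.4 and 60.5 CPM in the double knockout (log2 fold change 0.61, SE 0.14, adjusted p = 0.125, and 0.0392 by DESeq2). Fdft1, squalene synthase, was at 26.2, 28.6 and 29.5 against 45.9, 44.3 and 46.2 CPM, with no overlap (log2 fold change 0.69, adjusted p = 0.254). Ebp, a sterol isomerase gene of the same pathway, was the one wholly below, at 18.6, 17.9 and 17.4 against 12.1, 13.4 and 12.7 CPM (log2 fold change -0.50, adjusted p = 0.551).

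Another 6 of the called genes were 3 pairs of a mitochondrial gene and a nuclear copy of it, and these counts are uncertain. Gm28438, Gm28437 and Gm10222 lie on chromosome 1 (GRCm38, chr1:24612775-24613119, chr1:24613189-24613971 and chr1:24612407-24612700, minus strand) and are annotated as unprocessed pseudogenes. Over 345 aligned bases Gm28438 differs from mt-Nd3, a complex I subunit gene, at 1 base. Gm28437 equals mt-Co3, a complex IV subunit gene, over 783 bases, and Gm10222 equals mt-Nd4l, of complex I, over 294 bases. How reads that fit both places were treated is not given in the sources used here.

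WT reads were counted to the nuclear copies and double-knockout reads to the mitochondrial genes. Gm28438 was at 96.9, 132 and 85.5 CPM in WT and 0.957, 0.338 and 0.226 CPM in the double knockout, while mt-Nd3 was at 0, 0.788 and 0.861 and 35.6, 30.1 and 56.2 CPM. Gm28437 was at 20.7, 28.2 and 14.9 and 0.383, 0.338 and 0 CPM, with mt-Co3 at 0.191, 1.18 and 0 and 10.7, 13.2 and 16.5 CPM. The same swap held for Gm10222 and mt-Nd4l in all 6 libraries. Summed over each pair the levels were closer, at 105 ± 24.3 CPM in WT and 41.1 ± 13.6 CPM in the double knockout for mt-Nd3, 21.7 ± 7.29 and 13.7 ± 2.72 CPM for mt-Co3, and 9.47 ± 4.36 and 4.54 ± 2.93 CPM for mt-Nd4l (SD, n = 3). The sums of the mt-Nd3 pair did not overlap between groups, and those of the mt-Co3 pair did. All these sums are far under 18676.5 CPM, the median WT level of the 10 tested genes of the mitochondrial list. Whether they stand for the RNA levels of these genes was not tested. In the libraries labelled Gm1142 knockout Gm28438 was at 1.55, 0.767 and 0.852 CPM and mt-Nd3 at 62.0, 53.4 and 54.8 CPM, as in the double knockout. Other mitochondrial genes were not called, and mitochondrial reads made up 29.4% to 32.7% of counts in WT and 27.1% to 32.9% in the double knockout. Without all mitochondrial genes and these copies 8 genes were called, 4 higher and 4 lower.

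**Figure D4:**
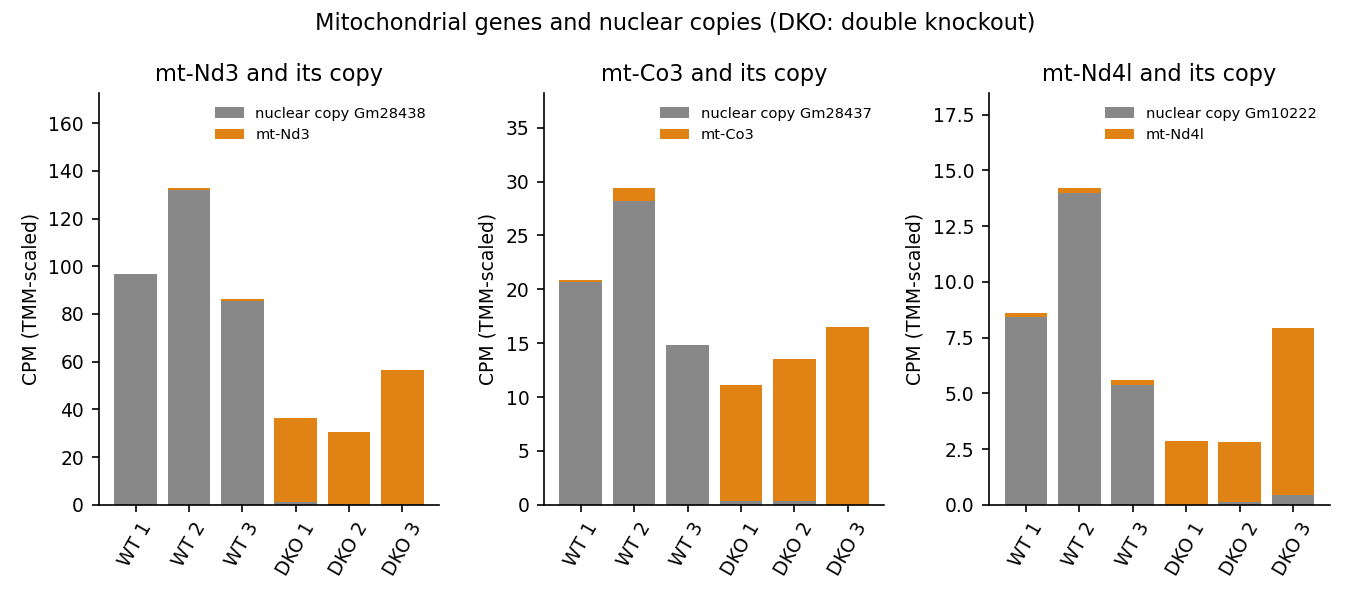
Stacked levels in CPM of 3 mitochondrial genes (orange) and their near-identical nuclear copies (gray) in the 3 WT and 3 double-knockout (DKO) libraries. WT bars are nearly all gray and double-knockout bars nearly all orange. For mt-Nd3 the summed height is 105 CPM on average in WT and 41.1 CPM in the double knockout. The 10 tested genes of the mitochondrial list have a median WT level of 18676.5 CPM, far above these bars.

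Of the called genes left, Gm47283 is a predicted gene of the Y chromosome (GRCm38, chrY:90784738-90816464), near the end that pairs with X, so that reads of an X-linked copy cannot be told apart. It stood at 21.1, 17.7 and 24.5 CPM in WT and 50.1, 43.4 and 56.4 CPM in the double knockout, with no overlap, and rose 2.36-fold (log2 fold change 1.24, SE 0.19, adjusted p = 0.00391). The adjusted p was 0.0646 without WT 1 and 0.0715 without WT 2. Of 8 tested Y-linked genes on a separate list none was called. None was wholly below WT and 2 (25%) were wholly above, against 7.57% and 8.28% of all genes. One was Uba1y, a ubiquitin-activating enzyme gene of spermatogonia with an X-linked relative, at 24.9, 36.5 and 35.5 against 48.6, 58.5 and 71.6 CPM (log2 fold change 0.88, adjusted p = 0.0734, and 0.00752 by DESeq2). Odf3b, an outer dense fibre family gene, was at 2.30, 5.12 and 1.72 CPM in WT with 0 reads in each double-knockout library. Its level was at least 18.8-fold lower against the floor of 3 counts over the group (adjusted p = 0.0465), and the call was lost without any 1 of the 6 libraries (adjusted p = 0.066 to 0.209) and without replicate 1 labelled Gm1142 knockout (0.0527).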

How the data were processed

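Poly(A) RNA of whole testis was sequenced in 9 libraries, 3 per group. The deposited file holds raw read counts per gene. Per the submitters' processing notes, cutadapt, Bowtie2, STAR and featureCounts were used with the build mm39 (versions not listed). Whether counting used strand, which annotation release it used and how it dealt with multi-mapping reads are not given in the sources used here, which touches overlapping genes and near-identical copies.

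From the counts, edgeR 4.0.16 (R 4.3.3) fitted 1 quasi-likelihood model with a term per group to the 9 libraries, after TMM scaling and filterByExpr with its defaults (a count of 10, a total of 15), which kept 17251 of 56691 genes. The fit has 6 residual degrees of freedom. The double knockout was tested against WT with Benjamini-Hochberg adjustment across the 17251 genes, and an adjusted p under 0.05 was called. The standard error is the log2 fold change divided by the square root of F. CPM values use scaled library sizes, and 3 counts in 1 library equal 0.338 to 0.679 CPM in the 6 libraries. Such floors cover counting error only, since no molecular identifiers were counted.

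The 25 gene lists hold 625 entries, of which 620 matched by symbol, 3 by an older name, 2 not at all, and 519 were tested. They are described by counts and medians, with no list test. Named genes were drawn from the targets, called genes, defining members and up to 4 members per list. Those members had the smallest p among genes whose groups do not overlap. Not all of these are printed, and defining members left out, such as Sox9, Amh, Fshr and Acta2, include genes with small differences. Dnd1, Stag3, Mybl1, Ebp, Bmp7, Junb, Taf1, Rec114, Lhx1, Tcl1 and the genes under other observations were picked once their values were known. The comparison and lists were chosen with earlier results of these data known. The test was tested on simulated data. Alternatives were RLE scaling in place of TMM in edgeR, no filter and a stricter filter (1 CPM in 3 libraries, 100 counts in total). Others were DESeq2 1.42.0, limma-voom (limma 3.58.1), the 6 libraries alone and the replicate number as a block. The last were thinning to the shallowest library, removal of mitochondrial genes and copies, and leaving out each library. Annotation and promoters are GRCm38, not the authors' build, and were matched by gene, not by position.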

Additional observations from a re-analysis of the deposited data

How the results depend on the processing

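The count of 16 called genes (8 higher, 8 lower) was the same with RLE scaling in place of TMM. It moved little with the stricter filter (15), limma-voom (15) and thinned libraries (16). It was 110 (60 higher, 50 lower) without a filter, 68 (39 and 29) with DESeq2, 28 (17 higher) with the 6 libraries alone and 8 (4 and 4) without mitochondrial genes and copies. Leaving out 1 library gave 9 to 45 calls, 2 to 27 higher and 7 to 22 lower. The cause was not tested. The 9 calls kept whichever library was left out were the targets, Nr4a1, Hoxd3, mt-Nd3, mt-Co3 and the 3 nuclear copies. Fkbp6 also missed the threshold in thinned libraries (adjusted p = 0.0653) and without mitochondrial genes (0.0744), Odf3b likewise (0.0703 and 0.0744), and mt-Nd4l with limma-voom (0.126), without any 1 WT library (0.113 to 0.188) and without double-knockout 3 (0.106). Over 63 of the named genes and 18 alternatives no fold change changed sign. Some genes named above, such as Wt1, Pax2 and Dmc1, were not among the 63.

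The median of the general germ-cell list ranged from 0.54 to 0.74 when 1 library was left out, highest without WT 2. For meiosis genes the range was 0.39 to 0.68, for Sertoli genes -0.15 to 0.014 and for duct genes -0.77 to -0.40. Deviations from the group mean had correlations of 0.05, -0.01 and 0.10 between same-numbered WT and double-knockout libraries. The value for replicate 3, 0.10, was the highest of any pair, while WT 1 correlated best with double-knockout 2 (0.08). Deviations from a mean of 3 libraries depend on one another, so these values cannot settle whether the replicate numbers pair the libraries. With the replicate number as a block, 16 genes were called, 15 of them shared, with Fkbp6 lost (adjusted p = 0.0827) and Uba1y gained (0.0284). At totals of 4370124 to 8359594 counts, genes of a few CPM rest on few reads.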

Other observations

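Just short of the threshold, 20 further genes had an adjusted p from 0.05 to 0.1, 17 higher and 3 lower in the double knockout, and 13 of them stand on none of the lists above. The genes named here were picked from the results, so their values are a description. Scml2, a Polycomb protein of the germ line encoded on the X chromosome, was at 54.6, 54.2 and 51.7 CPM in WT and 79.0, 98.5 and 75.6 CPM in the double knockout (log2 fold change 0.66, adjusted p = 0.0803). Slc25a31, the adenine nucleotide carrier of germ-cell mitochondria, stood at 23.0, 20.3 and 23.9 against 34.3, 43.7 and 41.0 CPM (log2 fold change 0.83, adjusted p = 0.0803). Cecr2, a chromatin remodelling factor, was at 26.6, 35.5 and 30.8 against 54.5, 52.3 and 47.6 CPM (log2 fold change 0.74, adjusted p = 0.0917). None of these 3 had overlapping groups. Tuba3a, a testis alpha-tubulin with a close relative in Tuba3b that may share its reads, was at 38.7, 32.1 and 29.9 against 63.7, 76.3 and 54.4 CPM (log2 fold change 0.95, adjusted p = 0.0987). The smallest adjusted p of the 20 was shared by Sycp2 and Dock3, a Rac activator known from neurons, at 17.0, 16.4 and 15.1 against 28.9, 33.1 and 29.0 CPM (log2 fold change 0.91, adjusted p = 0.056).

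Among genes on the lower side, Ddit4, a stress-induced and glucocorticoid-induced inhibitor of mTORC1, was at 233, 262 and 206 CPM in WT and 142, 153 and 167 CPM in the double knockout (log2 fold change -0.60, adjusted p = 0.0917). Its groups did not overlap. The protease inhibitor gene Spink12 stood at 55.7, 31.5 and 72.4 against 24.5, 11.7 and 29.9 CPM (log2 fold change -1.31, adjusted p = 0.104), with double-knockout 2 the lowest. Lcn2, a secreted lipocalin of epithelia, was at 11.7, 9.66 and 11.6 against 6.51, 2.93 and 3.17 CPM (log2 fold change -1.40, adjusted p = 0.119). Of 21 heat shock genes tested none was called, 2 (9.52%) were wholly above WT and 4 (19.0%) wholly below, against 8.28% and 7.57% of all genes, and the median was -0.08. Hsp90aa1, a cytosolic chaperone also abundant in germ cells, was at 274, 264 and 242 against 279.9, 396 and 303 CPM (log2 fold change 0.33, adjusted p = 0.476), and its co-chaperone gene Chordc1 at 321, 318 and 366 against 260.2, 261 and 287 CPM (log2 fold change -0.31, adjusted p = 0.483).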
